A study of Homo sapiens with 39 samples.

Results

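OCI-AML3 is an established human acute myeloid leukemia (AML) line, and its untreated expression profile was set against those of 6 other AML lines. The arrays were chosen by line and treatment alone: the 3 arrays of OCI-AML3 cells kept with the vehicle DMSO for 24 h were compared with 15 vehicle arrays of the other lines, out of 39 arrays in all. The other 15 arrays held 3 each of MV-4-11, NOMO-1 and OCI-M1 and 2 each of Kasumi-1, KG-1a and Sig-M5. The remaining 21 arrays, 3 of each line, came from cells exposed for 24 h to tamibarotene (SY-1425), an agonist of the retinoic acid receptor alpha, at a final 50 nM, and were used only to see whether a line difference was also present there. Total RNA of each sample was measured on a 1-colour human expression array, and values are log2 intensities. The difference reported for a gene is the OCI-AML3 mean minus the unweighted mean of the 6 other line means, so each line counts once. Calls were made at an adjusted p under 0.05, which 30% of all probe sets tested met, and where a gene had several probe sets the brightest over all 39 arrays stood for it. Each line stands for 1 leukemia kept in culture, so a difference describes OCI-AML3 among these 7 lines and not a subtype of AML. Nothing in the labels says that replicates came from separate cultures, so the p-values measure the spread between arrays of a line, which may be technical.

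AML lines are blocked at different points of blood cell formation, and each keeps part of the program of the stage it came from. OCI-AML3 is widely used as a model of AML with mutated NPM1, a nucleolar chaperone; leukemias of that kind are known for sustained expression of HOX genes, which code for homeodomain transcription factors, together with their cofactor MEIS1, and often for little surface CD34. Lineage in the other lines differs: OCI-M1 has erythroid features, KG-1a is an immature line, Kasumi-1 carries a fusion of RUNX1 with RUNX1T1, and MV-4-11, NOMO-1 and Sig-M5 are monocytic.

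Markers of the labelled cell type were present. Of 10 myeloid markers measured, 8 lay above the array median in OCI-AML3, among them LYZ, the lysozyme gene, at 12.14 to 12.22, and CEBPA, a myeloid transcription factor, at 11.71 to 11.88; MPO and ITGAM did not. None of 5 markers of adherent cells, 1 of 4 stem and progenitor markers and 1 of 4 T and NK cell markers lay above it, while 2 of 3 erythroid, 2 of 4 megakaryocyte and 2 of 3 B cell markers did. Among them PAX5, a B cell factor, averaged 8.61 in OCI-AML3 and ran from 8.33 to 9.02 on the other arrays, and GATA1, an erythroid factor, averaged 6.01 and ran from 5.80 to 9.98. Array medians ran from 5.01 to 5.17. The 3′ minus 5′ value of the beta-actin control probe sets, a sign of RNA or labelling quality, was 0.06, -0.02 and 0.12 on the OCI-AML3 arrays, against 0.81 and 1.89 for Sig-M5, 1.18 and 0.30 for Kasumi-1, 0.11 to 0.56 for OCI-M1 and 0.01 to 0.17 for the others. OCI-AML3 replicate 2 stood apart from its group, with correlations across genes of 0.9924 and 0.9872 with replicates 1 and 3, which correlated at 0.9969 with each other. Across genes its deviations from the group mean correlated at 0.73 with those of NOMO-1 replicate 2 and at -0.73 with those of MV-4-11 replicate 2, and the labels name no batch. Array values have no true zero, and a value near 3 or 4 cannot be told apart from background, so differences of dim genes may be understated.

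About as many genes were higher as lower in OCI-AML3, and few differed from every other line. Of 18132 genes, 2868 (15.8%) were higher and 2818 (15.5%) lower than the mean of the other lines, 31.4% in all, and 734 (4.05%) were higher and 650 (3.58%) lower by at least 2-fold. Each list of genes below is read against those 15.8% and 15.5%. The counts of genes were 2369 higher and 2296 lower without OCI-AML3 replicate 2, 2801 and 2620 without OCI-M1, and 2816 and 2969 when both Kasumi-1 and Sig-M5 were left out. A gene that differed from the mean did not always differ from every line: 321 genes (1.77%) were above each of the 6 other lines in 6 separate contrasts, and 104 (0.574%) were below each of them. The same count by 6 contrasts, made for the other lines in turn, gave 280 above and 144 below for MV-4-11, and up to 1404 above and 1310 below for Sig-M5. By arrays alone, 548 genes (3.02%) had all 3 OCI-AML3 arrays above the other 15 and 218 (1.2%) had them below. The counts by arrays for MV-4-11 were 532 and 226. The SD over genes of the difference from the other lines was 0.624 for OCI-AML3, the lowest of the 7, next to 0.637 for MV-4-11 and up to 0.914 for OCI-M1; no test was made between these values.

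MV-4-11 was the line nearest to OCI-AML3. In that pair 4156 genes (22.9%) were called, 1378 (7.6%) of them by at least 2-fold. Against KG-1a 5540 genes (30.6%) were called, against NOMO-1 5705 (31.5%), against Kasumi-1 5916 (32.6%) and against OCI-M1 6677 (36.8%). The most, 8268 genes (45.6%), were called against Sig-M5. Across the 18132 genes, which are not independent replicates, the mean profile of OCI-AML3 correlated at 0.962 with MV-4-11, 0.947 with NOMO-1, 0.93 with Kasumi-1, 0.925 with Sig-M5, 0.913 with KG-1a and 0.911 with OCI-M1. By correlation Sig-M5 therefore stood in the middle, while by count of calls it stood last. Of the 734 genes higher by at least 2-fold, OCI-AML3 was the highest of the 7 lines for 385 and the second for 227, and the highest other line was NOMO-1 for 210 and MV-4-11 for 177. Of the 650 genes lower by at least 2-fold, it was the lowest line for 269.

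**Figure D1:**
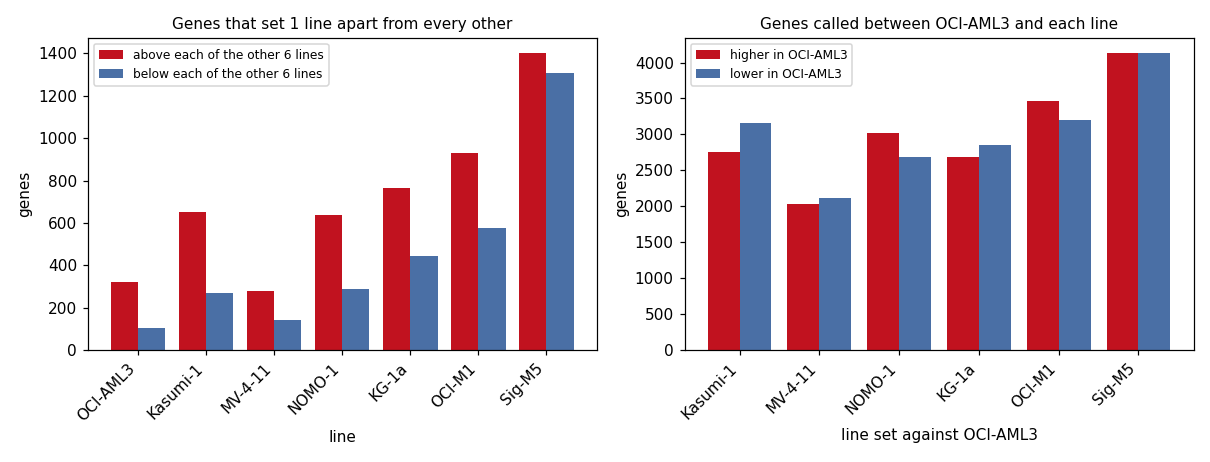
Left, number of genes above (red) and below (blue) each of the other 6 lines, for each of the 7 lines in vehicle. Right, number of genes called higher (red) or lower (blue) in OCI-AML3 than in each other line. OCI-AML3 has 321 genes above and 104 below every other line, and the fewest calls between OCI-AML3 and another line are those against MV-4-11.

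The genes with the widest gap above every other line had little in common by known role: a secreted ribonuclease, a steroid enzyme, a muscle protein, 2 homeodomain factors, a neuropeptide, an antisense transcript of the HOXB cluster and a basement membrane collagen. RNASE1, the pancreatic-type secreted ribonuclease, read 10.86, 10.81 and 10.69 on the OCI-AML3 arrays, against 3.88 to 5.70 (median 4.37) on the other 15 arrays. That is a log2 difference of 6.29 ± 0.10 (SE), the largest rise of all genes whose arrays did not overlap (adjusted p = 1.99e-15). HSD11B1, which makes active cortisol from cortisone, read 10.72, 10.66 and 10.63, against 3.54 to 6.44 (median 4.77), a difference of 5.99 ± 0.15 (adjusted p = 1.34e-13). Neither gene showed any overlap between OCI-AML3 and other arrays. MYBPH, a myosin-binding protein of skeletal muscle, read 11.55, 11.55 and 11.84, against 5.33 to 7.71 (median 5.86).

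For 4 genes the other 6 lines sat together near the bottom of the scale and OCI-AML3 alone was far above. MKX, a homeodomain factor known from tendon, read 7.78, 7.09 and 7.96, against 2.29 to 2.68 (median 2.49) elsewhere, a difference of 5.14 ± 0.13. POU4F2, a POU-domain factor of retinal ganglion cells, read 7.88, 8.08 and 7.59, against 2.78 to 3.19 (median 2.97). NPY, the gene of neuropeptide Y, read 7.65, 8.0 and 7.51, against 2.72 to 3.16 (median 2.96). For each of these 3 genes the other 15 arrays lay within a narrow band that no OCI-AML3 array came near. COL15A1, a collagen of basement membranes, read 7.88, 7.91 and 7.90, against 2.91 to 4.02 (median 3.21).

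Few genes were called when each line was counted as 1 sample. In that test, 1 OCI-AML3 mean against 6 other line means, the error is the spread between lines, and 15 genes were higher and 1 was lower. Counted as probe sets, 33 were called higher and 1 lower, while 709 and 172 had an unadjusted p under 0.05. MKX, NPY and POU4F2 had the smallest adjusted p, 0.000538 each, followed by HOXB-AS3 at 0.000605. Beyond the genes named by rule, the test called LDHC, PCDH20, WLS, LHX2, S100A16, SPATA6, PDLIM4 and AOPEP higher, which are named here because they passed it, after their values were seen. LDHC, the testis form of lactate dehydrogenase, averaged 7.11 in OCI-AML3 and 3.38 to 3.60 in the other lines. LHX2, a LIM-homeodomain factor, averaged 6.48 in OCI-AML3 and 2.94 to 3.27 in the other lines. The lower gene was BCL7A.

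**Figure D2:**
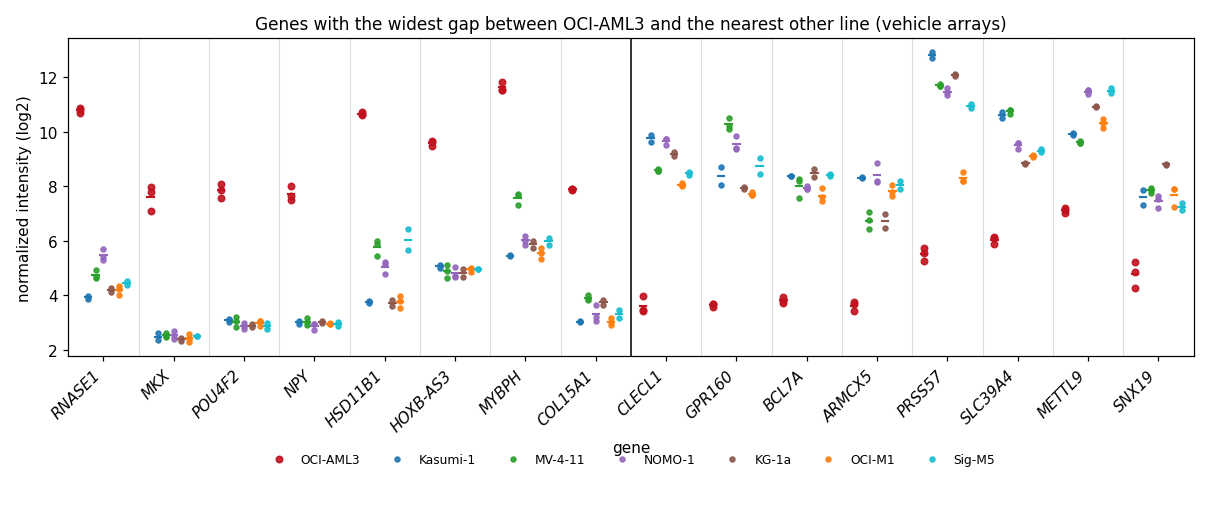
Normalized intensity (log2) on every vehicle array of the 8 genes with the widest gap above (left of the black line) and below (right of it) the nearest other line. Points are arrays, short bars are line means, and OCI-AML3 (red) stands first within each gene. MKX, POU4F2 and NPY lie between 7.09 and 8.08 in OCI-AML3 and under 3.2 in the other lines, while BCL7A lies under 4 in OCI-AML3 and above 7.4 elsewhere.

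The promoter windows of 4 such genes are printed because each is far lower in OCI-AML3 than in every other line (GPR160 and BCL7A) or far higher (MKX and RNASE1), and promoters are commonly classed by their CpG density. Each runs from 250 bases before to 50 bases after the start of transcription in the RefSeq table of assembly GRCh38.p14, and capitals mark every CG pair, read on the printed strand. These windows are MKX at chr10:27745770-27746069 (minus strand), RNASE1 at chr14:20802795-20803094 (minus strand), GPR160 at chr3:170037745-170038044 (plus strand) and BCL7A at chr12:122021634-122021933 (plus strand).
MKX: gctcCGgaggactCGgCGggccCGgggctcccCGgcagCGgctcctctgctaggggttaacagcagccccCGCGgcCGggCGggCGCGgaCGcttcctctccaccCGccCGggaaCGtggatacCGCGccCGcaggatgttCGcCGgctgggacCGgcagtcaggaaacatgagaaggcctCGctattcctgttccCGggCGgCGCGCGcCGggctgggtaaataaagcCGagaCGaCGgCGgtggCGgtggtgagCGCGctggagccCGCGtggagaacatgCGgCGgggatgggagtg
RNASE1: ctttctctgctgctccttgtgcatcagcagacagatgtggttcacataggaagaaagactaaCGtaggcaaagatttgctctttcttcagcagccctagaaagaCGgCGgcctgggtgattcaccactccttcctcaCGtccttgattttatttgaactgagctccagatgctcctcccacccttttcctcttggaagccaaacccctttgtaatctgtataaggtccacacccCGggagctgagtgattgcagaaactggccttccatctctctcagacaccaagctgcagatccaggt
GPR160: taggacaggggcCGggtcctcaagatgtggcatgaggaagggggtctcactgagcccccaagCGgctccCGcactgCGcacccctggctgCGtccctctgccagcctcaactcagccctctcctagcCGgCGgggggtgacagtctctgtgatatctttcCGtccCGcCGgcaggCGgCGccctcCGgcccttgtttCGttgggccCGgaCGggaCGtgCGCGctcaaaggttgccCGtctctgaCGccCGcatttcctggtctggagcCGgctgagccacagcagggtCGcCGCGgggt
BCL7A: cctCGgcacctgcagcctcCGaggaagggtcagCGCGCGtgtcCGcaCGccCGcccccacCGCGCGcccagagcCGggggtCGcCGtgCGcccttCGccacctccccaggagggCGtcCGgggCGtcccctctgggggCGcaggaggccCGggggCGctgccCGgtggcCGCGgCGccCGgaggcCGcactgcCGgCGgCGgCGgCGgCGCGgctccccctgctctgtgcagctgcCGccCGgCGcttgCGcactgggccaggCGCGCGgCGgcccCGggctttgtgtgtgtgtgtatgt
The windows hold 40 CG pairs for MKX, 5 for RNASE1, 26 for GPR160 and 44 for BCL7A. Of the genes above each other line, 264 of 321 had a promoter in the table, with a median of 26 CG pairs, and 82.2% held at least 10. Of the genes below each other line, 91 of 104 had one, with a median of 24, and 85.7% held at least 10. Among all genes tested 14425 of 18132 had one, with a median of 23 and 74.3% at 10 or more, and over all 27305 windows of the table the share was 56.0%. These are descriptions of sequence, and methylation was not measured.

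The other genes among the 15 largest rises were shared with at least 1 other line or had a second line part of the way up. BMP2, a bone morphogenetic protein, read 10.08, 10.16 and 10.13, against 3.33 to 7.71 (median 5.34), with NOMO-1 the nearest line at 7.52 and a difference from the mean of 5.02 ± 0.10. LAMP5, a lysosomal membrane protein of plasmacytoid dendritic cells, read 12.66, 12.64 and 12.61, but MV-4-11 averaged 12.36 and Sig-M5 12.16. Its difference of 4.95 rests on Kasumi-1, KG-1a and OCI-M1, at 4.02 to 4.50. PTPRN2, a protein tyrosine phosphatase-like protein of secretory granules, read 11.49, 11.49 and 11.48 on the OCI-AML3 arrays, beside a mean of 10.95 in NOMO-1. CKAP4, an endoplasmic reticulum protein, showed the same pattern, with OCI-AML3 arrays from 11.80 to 11.85 and NOMO-1 at 11.47. SLAIN1, a microtubule-tip protein, read 10.70, 10.63 and 10.74, while Kasumi-1, OCI-M1 and Sig-M5 averaged 8.20 to 8.45 and the other lines under 5. CD1D, which presents lipid antigens, read 9.47, 9.48 and 9.40, against 3.56 to 8.12, and 1 of its 2 probe sets showed no call, at -0.04.

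Genes far below every other line included a lectin-like receptor, an orphan receptor, a chromatin remodelling subunit, a granule protease and a zinc transporter. CLECL1, a C-type lectin-like protein, read 3.41, 3.98 and 3.45 on the OCI-AML3 arrays, against 8.0 to 9.88 (median 8.65) on the other 15, a log2 difference of -5.35 ± 0.10 (SE, adjusted p = 1.06e-14). GPR160, an orphan G protein-coupled receptor, read 3.69, 3.56 and 3.69, against 7.68 to 10.51 (median 8.71), a difference of -5.12 ± 0.14. BCL7A, a subunit of SWI/SNF remodelling complexes, read 3.94, 3.80 and 3.73, against 7.45 to 8.65 (median 8.18), a difference of -4.33 ± 0.13. For each of these, the OCI-AML3 arrays were at a level where a transcript cannot be told apart from background, and no other line was near them. The 3 BCL7A probe sets ran the same way, from -4.33 to -1.13. PRSS57, a neutrophil granule protease, read 5.72, 5.56 and 5.25, against 8.19 to 12.92 (median 11.61). SLC39A4, a zinc importer, read 6.11, 6.13 and 5.90, against 8.82 to 10.81. METTL9, a histidine methyltransferase, read 7.12, 7.21 and 7.02, against 9.59 to 11.60, and SNX19, a sorting nexin, read 5.23, 4.86 and 4.27, against 7.14 to 8.83. ARMCX5, an X-linked armadillo-repeat gene, read 3.75, 3.68 and 3.42, against 6.42 to 8.87.

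The largest falls from the mean were those of a cyclin and a protease inhibitor. CCND2, cyclin D2, read 2.55, 2.66 and 2.72, against 3.05 to 11.57 (median 10.91), a difference of -6.87 ± 0.12 (adjusted p = 3.34e-15). NOMO-1 was also low, at 3.26, and the other 5 lines averaged 9.07 to 11.39. SPINT2, a Kunitz-type inhibitor of serine proteases, read 3.27, 3.32 and 3.55, against 5.06 to 12.02 (median 11.01), a difference of -6.85 ± 0.10. Sig-M5 was the nearest line, at 5.26. STAT5A, a signal transducer of cytokine receptors, read 4.40, 4.82 and 4.51, against 5.04 to 10.64 (median 8.34), with Sig-M5 again nearest, at 5.28. CHFR, a mitotic checkpoint ubiquitin ligase, read 5.05, 4.80 and 4.23, against 5.08 to 9.82 (median 9.32), with Kasumi-1 nearest, at 5.37. In each of these 4 genes, then, 1 other line was also low. TSC22D1, CLEC2B, DNAJC12, TSPAN13, PRSS21 and CD52 also had no overlap with the other arrays, with differences of -4.57, -4.19, -4.11, -4.10, -4.09 and -3.65. For some of them another line was close. CLEC2B averaged 3.24 in OCI-AML3 and 3.74 in MV-4-11, and was not called below each line. DNAJC12 averaged 4.09, beside 4.72 in NOMO-1, and PRSS21 3.99, beside 4.48 in MV-4-11.

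Within the HOXB cluster, a run of neighbouring homeodomain genes, 7 of 10 measured genes were higher in OCI-AML3 and 1 was lower, and the median difference was 0.75, beside -0.03 over all genes. HOXB6 read 9.21, 9.27 and 9.02, against 5.08 to 6.81 (median 5.41), a difference of 3.48 ± 0.09 (adjusted p = 1.94e-13). HOXB8 read 6.77, 6.92 and 6.08, against 3.76 to 5.31 (median 4.23), a difference of 2.31 ± 0.16. HOXB-AS3, an antisense transcript of the cluster, read 9.65, 9.64 and 9.49, against 4.64 to 5.13 (median 4.97), a difference of 4.67 ± 0.10. All 3 had no overlap with any other line. HOXB3 and HOXB5 were also above the other arrays, by 0.84 ± 0.12 and 0.51 ± 0.09, and HOXB3 depended on the probe set, with differences from 0.25 to 4.6 over 4 probe sets.

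Other members of the cluster were shared with OCI-M1 and KG-1a. HOXB2 read 9.03, 9.09 and 8.87 in OCI-AML3, while KG-1a averaged 10.77, OCI-M1 9.43 and the other 4 lines 3.03 to 3.71. HOXB7 read 6.62, 6.57 and 6.35, below OCI-M1 at 7.21 and above the other lines at 3.96 to 4.6. HOXB4 read 7.29, 7.57 and 7.22, with OCI-M1 at 8.19, and its difference of 0.66 ± 0.18 (adjusted p = 0.00998) had an adjusted p of up to 0.0772 without Kasumi-1 or without OCI-AML3 replicate 2. HOXB9 was the member called lower (-0.47 ± 0.13): OCI-AML3 read 4.68, 4.6 and 4.75, OCI-M1 averaged 9.24, and without OCI-M1 the difference was 0.35. HOXB1 and HOXB13 were not called by their brightest probe sets, though 2 of the other 3 HOXB13 probe sets were called higher, at 0.81 and 0.31. By the brightest probe sets, the 7 genes called higher were HOXB2 to HOXB8.

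Of the HOXC and HOXD clusters 0 of 16 genes were higher in OCI-AML3 by limma (0 at an unadjusted p under 0.05), and 4 were lower, HOXD13, HOXC6, HOXC13 and HOXC4, and in each case 1 or 2 other lines were high; 2 were lower when both Kasumi-1 and Sig-M5 were left out. HOXD13 read 3.76, 3.57 and 3.74, while Sig-M5 averaged 8.78 and Kasumi-1 6.90, and its difference of -1.56 became -0.26 without those lines (adjusted p = 0.0676). HOXC6 averaged 7.87 in MV-4-11, and its difference of -0.63 became -0.14 without that line (adjusted p = 0.494). The other 12 genes gave differences between -0.23 and 0.20. Of the HOXA cluster, HOXA2 alone was analysed here, and it was not called (difference -0.14 ± 0.10).

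The TALE-class cofactors of HOX proteins split, with 3 of 10 higher and 3 lower. MEIS1, the cofactor best known from leukemia, read 6.04, 6.12 and 5.97, between MV-4-11 at 7.41 and NOMO-1 at 6.55 on one side and the other 4 lines at 3.24 to 3.54 on the other, a difference of 1.49 ± 0.10. MEIS2 was the reverse, at 3.30, 3.90 and 3.63, against 4.40 to 7.85 (median 6.17), a difference of -2.55 ± 0.13. PBX3 read 7.69, 7.47 and 7.52, while MV-4-11 averaged 10.18, NOMO-1 10.23, Kasumi-1 3.03 and OCI-M1 3.30. Its difference of 0.50 ± 0.12 became -0.31 without Kasumi-1, -0.26 without OCI-M1 and -0.51 without Kasumi-1 and Sig-M5, so no direction is given for it. For MEIS1 the difference was 0.91 without Kasumi-1 and Sig-M5. The brightest of 6 NPM1 probe sets was not called, at 12.55, 12.49 and 12.66 in OCI-AML3 and a difference of -0.17 ± 0.08 (adjusted p = 0.122). The other NPM1 probe sets were also negative, and 2 were called lower, at -0.41 and -0.44. The array does not tell a mutated transcript from a normal one.

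**Figure D3:**
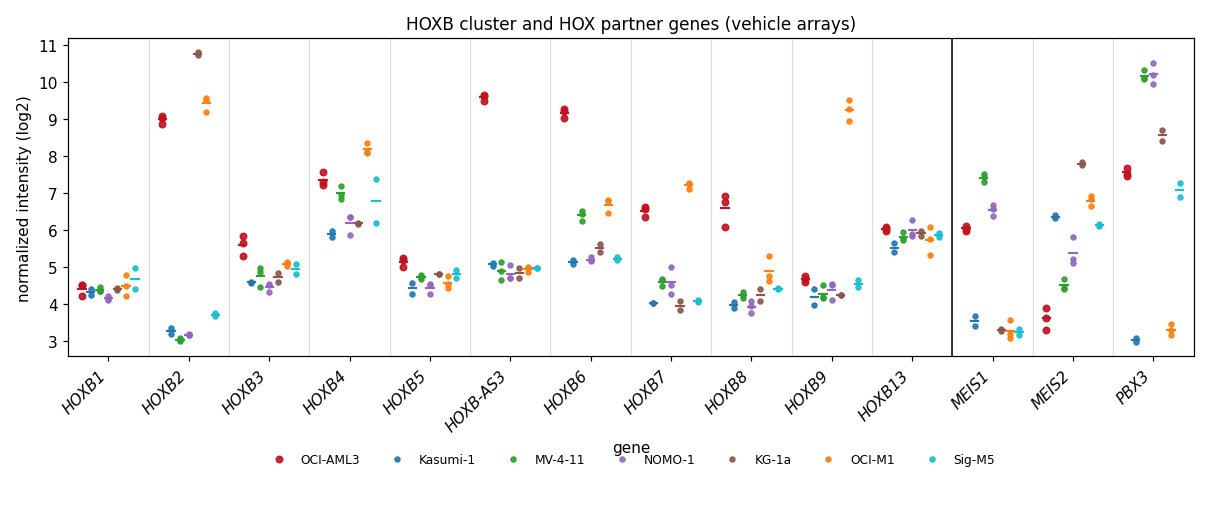
Normalized intensity (log2) of the HOXB genes in number order, HOXB-AS3, and (right of the black line) MEIS1, MEIS2 and PBX3 on every vehicle array. Points are arrays, short bars line means, and OCI-AML3 (red) stands first within each gene. HOXB6, HOXB8 and HOXB-AS3 are above every other line, HOXB2 is shared with KG-1a and OCI-M1, and MEIS2 is lowest in OCI-AML3.

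Among transcription factors of myeloid cells 13 of 27 were higher and 8 lower, with a median of 0.50, which was 0.34 without OCI-M1 and 0.18 when both Kasumi-1 and Sig-M5 were left out. IRF8, a factor of monocyte and dendritic cell formation, read 12.84, 12.84 and 12.81, with MV-4-11 at 12.39 and KG-1a and OCI-M1 at 4.36 and 3.77, a difference of 4.51 ± 0.15 (adjusted p = 2.45e-12). KLF2, a factor of quiescence in leukocytes and endothelium, read 10.41, 10.51 and 10.26, against 4.93 to 8.52 (median 6.53), a difference of 4.0 ± 0.11, and was above every other line. CEBPA, needed for granulocyte formation, read 11.71, 11.74 and 11.88, against 7.25 to 11.70 (median 10.34), a difference of 2.12 ± 0.17, with MV-4-11 only 0.27 below. EGR1, an immediate early gene, was higher by 2.82 ± 0.12, and its 6 probe sets ran from 0.06 to 2.83. BCL11A, a factor of progenitors and of fetal globin silencing, was the clearest fall, at 5.06, 5.28 and 4.82, against 5.15 to 10.02 (median 9.25), a difference of -3.50 ± 0.14, with OCI-M1 next at 5.53. SPI1, the gene of PU.1, was near its mean elsewhere, at 6.34, 6.79 and 6.20 and a difference of 0.53 ± 0.13 (adjusted p = 0.00644), which was not called without KG-1a (0.32) or without OCI-AML3 replicate 2. WT1, a zinc finger factor often high in AML, read 5.86, 6.13 and 5.69, against 3.77 to 10.12 (median 9.20), a difference of -2.34 ± 0.11, and NOMO-1 alone was lower.

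Primary (azurophil) granule proteins divided most sharply, with 7 of 14 higher and 5 lower. CTSG, cathepsin G, read 13.83, 13.80 and 13.86, against 3.66 to 13.67 (median 11.73), a difference of 4.08 ± 0.10. ELANE, neutrophil elastase, read 12.99, 13.06 and 13.00, close to Kasumi-1 at 13.20 and NOMO-1 at 13.24, and its difference of 2.96 ± 0.11 was 1.86 without KG-1a and 1.88 without OCI-M1. MPO, myeloperoxidase, was low, at 5.02, 5.19 and 4.93, while Sig-M5 averaged 13.87, Kasumi-1 13.77 and NOMO-1 12.90. Its difference of -4.28 ± 0.13 was -2.04 without Kasumi-1 and Sig-M5, and KG-1a (4.90) and OCI-M1 (4.03) were lower still. PRSS57, of the same granules, was below every line (-5.72 ± 0.10). OCI-AML3 thus held high values of 2 serine proteases of the granule together with low values of MPO and PRSS57. MV-4-11 shared most of this, with means of 12.11 for CTSG, 12.51 for ELANE and 6.52 for MPO, but 11.71 for PRSS57.

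In the monocyte and macrophage list 17 of 36 genes were higher and 6 lower. The median of 0.17 was 0.26 without OCI-AML3 replicate 2, 0.30 when both Kasumi-1 and Sig-M5 were left out and 0.00 without OCI-M1. S100A8, a subunit of calprotectin, read 10.92, 10.90 and 10.94, below NOMO-1 at 13.61 and Sig-M5 at 12.23 and above MV-4-11 at 9.27, while the other 3 lines averaged 4.22 to 4.66 (difference 2.84 ± 0.09). Its partner S100A9 kept the same order of lines, with OCI-AML3 at 10.62, 10.58 and 10.59 and a difference of 2.44 ± 0.08, or 1.51 without OCI-M1. CX3CR1, the fractalkine receptor, read 8.18, 8.18 and 8.16, second to NOMO-1 at 9.52. FCGR1A, the high-affinity IgG receptor, read 9.50, 9.63 and 9.53, against 3.64 to 9.31 (median 8.69). CD14, the coreceptor for endotoxin, read 5.70, 6.53 and 5.70, with Sig-M5 at 6.18 and the other lines at 3.67 to 4.67, a difference of 1.55 ± 0.18. ITGAM, the CD11b gene, was low at 4.64, 4.55 and 4.10, and its difference of -0.59 ± 0.14 came from NOMO-1 at 10.82, since without that line it was 0.57. CD38, an NAD-consuming surface enzyme that retinoids induce, read 8.46, 8.45 and 8.23, against 2.90 to 7.39 (median 4.56), a difference of 3.33 ± 0.11. Secondary and tertiary granule genes stayed near the background share, with 4 of 20 higher and 2 lower, among them TCN1 (2.41 ± 0.11) and CYBB (2.68 ± 0.21) higher.

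**Figure D4:**
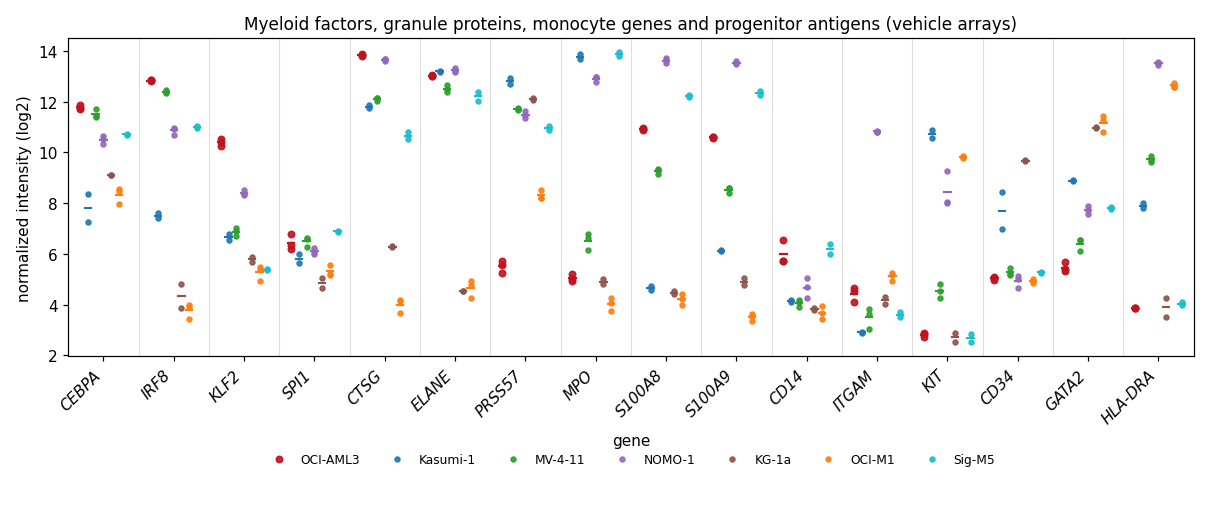
Normalized intensity (log2) of myeloid factors, granule proteins, monocyte genes, progenitor antigens and HLA-DRA on every vehicle array. Points are arrays, short bars line means, and OCI-AML3 (red) stands first within each gene. CTSG and ELANE are above 12.9 in OCI-AML3 while MPO is near 5, and KIT, CD34, GATA2 and HLA-DRA are low.

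Antigens of stem and progenitor cells were low: 16 of 25 genes were lower and 0 were higher by limma, with a median of -0.49, and 0 were higher at an unadjusted p under 0.05. The large falls came from a few other lines with a high level. KIT, the stem cell factor receptor, read 2.73, 2.88 and 2.85, level with KG-1a at 2.71 and Sig-M5 at 2.70, while Kasumi-1 averaged 10.73, OCI-M1 9.82 and NOMO-1 8.44 (difference -3.67 ± 0.20). CD34, a surface sialomucin of progenitors, read 5.06, 5.10 and 4.96, near MV-4-11, NOMO-1, OCI-M1 and Sig-M5 at 4.93 to 5.28, while KG-1a at 9.67 and Kasumi-1 at 7.70 were high. Its difference of -1.26 ± 0.19 was -0.58 without KG-1a. SPINK2, a protease inhibitor of progenitors, differed by -2.23 ± 0.12, or -1.25 without NOMO-1, and BAALC, a marker of immature blasts, by -1.42 ± 0.13, or -0.89 without KG-1a. FLT3, a receptor of progenitors, was not called (difference 0.00 ± 0.25), with OCI-AML3 at 6.43, 5.92 and 6.66 below MV-4-11 at 9.46 and NOMO-1 at 8.65. GATA2, a factor of progenitors and mast cells, was below every other line, at 5.39, 5.66 and 5.32, against 6.13 to 11.42 (median 7.88), a difference of -3.37 ± 0.12.

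Of the erythroid genes 17 of 26 were lower and 2 higher in the comparison with all lines, but without the erythroid line OCI-M1 only 6 were lower. KLF1, an erythroid factor, read 4.78, 4.72 and 4.72, while OCI-M1 averaged 11.32, and its difference of -1.76 ± 0.13 was -0.80 without that line. RHAG, an erythrocyte membrane protein, was high in KG-1a (10.35) as well as OCI-M1 (10.48), and its difference of -2.34 ± 0.10 was -1.55 without KG-1a and -1.53 without OCI-M1. CA2, carbonic anhydrase 2, which monocytic cells and osteoclasts also use, was higher, at 11.47, 11.24 and 11.50, level with NOMO-1 at 11.30 (difference 3.42 ± 0.14). Megakaryocyte genes were mixed (4 of 26 higher and 6 lower), with PLEK, pleckstrin, above every other line at 10.74, 10.76 and 10.79, against 4.72 to 10.28 (median 9.59). The other members named by rule were lower: ITGA2B differed by -2.15 ± 0.11, NFE2 by -1.61 ± 0.14 and P2RX1 by -0.86 ± 0.08. For ITGA2B the high lines were KG-1a (10.47) and OCI-M1 (10.28), and for NFE2 OCI-M1 (10.67) and Sig-M5 (9.05). Of the eosinophil, basophil and mast cell genes 8 of 17 were lower and 1 higher: PRG2, the eosinophil major basic protein, differed by -2.89 ± 0.15 (-1.76 without OCI-M1), and MS4A3, a gene of granulocyte-monocyte progenitors, was higher by 3.63 ± 0.13. For MS4A3, MV-4-11 (12.53) and Sig-M5 (12.04) were above OCI-AML3 (11.84), and Kasumi-1, KG-1a and NOMO-1 averaged 3.5 to 6.78.

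Most lymphoid and stromal markers were not called, which was also true of all genes, of which 31.4% were called and 15.5% were lower. The share called was 40.6% for T and NK cell genes, 28.6% for B and plasma cell genes, all lower, and 29.2% for adherent cell genes. T and NK cell genes gave 3 of 32 higher, 10 lower and 19 not called. LAT, an adaptor of T cell and mast cell receptors, was the highest of the 7 lines, at 10.14, 10.24 and 10.18, against 5.08 to 9.31 (median 7.32), while CD3D read 3.08, 3.69 and 3.36 and its difference of -1.51 was -0.03 without KG-1a, the line in which it averaged 12.26. B and plasma cell genes gave 0 of 21 higher by limma (0 at an unadjusted p under 0.05), 6 lower and 15 not called. Dendritic cell genes gave 5 of 21 higher, 4 of them above every other line, and 4 lower, with a median of -0.02. CD1A, a lipid-presenting molecule of Langerhans cells, read 5.80, 6.16 and 5.53, against 3.50 to 3.96 (median 3.65), a difference of 2.16 ± 0.10 that was also called with line means as samples. BATF3, a factor of cross-presenting dendritic cells, read 8.03, 8.18 and 7.98, against 4.58 to 7.35. CCR7, a chemokine receptor, was lower, at 3.50, 4.14 and 3.82, a difference of -1.66 ± 0.15. NOMO-1 (8.53) and OCI-M1 (7.47) were its highest lines. Of the adherent cell genes 3 of 24 were higher, 4 lower (2 when both Kasumi-1 and Sig-M5 were left out) and 17 not called, and VIM, vimentin, high in most leukocytes, read 13.29, 13.32 and 13.32, with Kasumi-1 at 3.12 and KG-1a at 4.27 the only low lines.

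Transcripts of MHC class II antigen presentation were low in OCI-AML3: 13 of 19 genes were lower and 1 was higher, with a median of -0.87. HLA-DRA, the alpha chain of HLA-DR, read 3.88, 3.86 and 3.86, against 3.53 to 13.57 (median 9.70), a difference of -4.75 ± 0.11 (adjusted p = 6.95e-14). KG-1a (3.90) and Sig-M5 (4.03) were at the same low level, and NOMO-1 (13.50) and OCI-M1 (12.64) were highest. NOMO-1 and OCI-M1 were also highest for HLA-DPA1 (-2.70 ± 0.10, or -1.77 without NOMO-1) and for HLA-DMA, a peptide exchange factor (-2.61 ± 0.11). For HLA-DPA1, Kasumi-1 (5.38), KG-1a (5.58) and Sig-M5 (5.22) were near OCI-AML3 (5.19). For HLA-DMA, KG-1a (3.03) and Sig-M5 (3.43) were below OCI-AML3 (3.71). MV-4-11, the line nearest to OCI-AML3 over all genes, averaged 9.73 for HLA-DRA. Without OCI-M1 the count was 10 lower and 2 higher, with a median of -0.53, and with both Kasumi-1 and Sig-M5 left out the median was -1.59.

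For MHC class I the direction depended on the lines: 5 of 17 genes were higher and 7 lower, against 7 and 4 without OCI-M1, 3 and 6 without OCI-AML3 replicate 2, or 1 and 9 when both Kasumi-1 and Sig-M5 were left out. PSMB9, an immunoproteasome subunit, was called higher by 0.93 ± 0.09, yet by 0.18 without Kasumi-1 and by -0.17 without Kasumi-1 and Sig-M5. Interferon-stimulated genes were lower in 26 of 39 cases and higher in 1, with a median of -0.69. Without OCI-M1 18 were lower and 4 higher, with a median of -0.36. IFITM1, which blocks viral entry, read 5.94, 5.56 and 6.19, against 5.29 to 13.53 (median 12.21), a difference of -4.86 ± 0.10 (adjusted p = 2.11e-14). Its relative IFITM3 differed by -2.04 ± 0.11. For both, Sig-M5 was lower than OCI-AML3, at 5.37 and 5.15. MX2, an interferon-induced GTPase, was the member called higher, at 8.53, 8.71 and 8.59, level with NOMO-1 at 8.56 and above the other lines at 4.03 to 6.48.

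Of 40 cytokine and chemokine genes 11 were higher than the mean of the other lines and 9 lower, and 4 were above each line, beside 1.77% of all genes. IL1RN, the interleukin 1 receptor antagonist, read 9.42, 9.81 and 9.68, against 3.58 to 9.01 (median 6.69), a difference of 3.75 ± 0.13. CXCL8, interleukin 8, read 9.86, 9.55 and 9.98, against 3.63 to 9.0 (median 6.85), a difference of 2.90 ± 0.12. CCL5, a chemokine for T cells and monocytes, read 10.55, 10.64 and 10.53, against 4.94 to 10.03. These 3 had no overlap with the other arrays, whereas IL1B, at 8.47, 8.71 and 8.34, was second to KG-1a at 8.89. Cytokine receptors were mixed (10 of 46 higher, 14 lower), with IL17RA (2.57 ± 0.12) and IL6R (1.99 ± 0.11) higher and FGFR1 (-2.30 ± 0.13) lower. For IL17RA, MV-4-11 (10.51), Sig-M5 (10.11) and NOMO-1 (9.86) were near OCI-AML3 (10.81), and for IL6R Sig-M5 (10.61) was above it (10.19). Among chemokine receptors, 5 of 29 were higher and 10 lower: CXCR4, the marrow homing receptor, read 11.49, 11.49 and 11.45, level with NOMO-1 at 11.67, and CCR1 was above every other line by at least 1.39. Integrins and adhesion molecules gave 10 of 39 higher and 15 lower, with ITGB2, the shared beta chain of leukocyte integrins, higher by 1.82 ± 0.10 (0.83 without OCI-M1) and its partner ITGAL lower by -1.34 ± 0.10.

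Cyclins and inhibitors of cyclin-dependent kinases went both ways, with 5 of 17 higher and 5 lower, CCND2 at -6.87 being the largest fall of all genes whose arrays did not overlap, and 3 were higher when both Kasumi-1 and Sig-M5 were left out. Of DNA replication and mitosis genes 10 of 40 were higher and 3 lower, and the named members differed by less than 1 on the log2 scale: CDC45, a replication helicase cofactor, differed by 0.92 ± 0.09 and CDC20, an activator of the anaphase ubiquitin ligase, by 0.57 ± 0.07. MYC itself was not called, at 11.92, 11.92 and 11.85, against 10.86 to 12.79 (median 12.56), and the MYC and ribosome biogenesis list had 12 of 32 higher and 3 lower with a median of -0.02. Without OCI-AML3 replicate 2 the higher members were 7 and the median 0.14, and with both Kasumi-1 and Sig-M5 left out 5 were lower and the median was 0.12. MYCL, a MYC paralog, was higher by 2.10 ± 0.12, second to NOMO-1. Of the p53 targets 12 of 33 were higher and 7 lower. CDKN1A, the p21 inhibitor of cyclin-dependent kinases, read 9.03, 9.07 and 8.93, and its difference of 0.77 ± 0.11 lay between 0.37 without Kasumi-1 and 1.24 without Sig-M5. CDKN2A, the p16 and p14ARF locus, read 7.75, 8.01 and 7.67, against 4.75 to 12.70 (median 10.81), a difference of -2.05 ± 0.09, with NOMO-1 alone lower.

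In the BCL2 family 8 of 18 genes were higher and 4 lower, and 5 were higher without Kasumi-1 and Sig-M5. BCL2L11, the gene of the death-promoting protein BIM, read 9.0, 9.08 and 9.08, level with OCI-M1 at 9.0 and above the other lines at 6.91 to 7.31. BCL2L2, which protects cells, was above every other line (1.28 ± 0.10). The brightest of 6 BCL2 probe sets was not called (0.17 ± 0.25), and 1 other was called higher, at 0.98. MCL1 was called at an adjusted p of 0.031, a call lost, beside the fit on line means, with the replicate number as a block, with the actin value as a covariate, without MV-4-11, KG-1a or OCI-M1 and without KG-1a replicate 2 or OCI-AML3 replicate 1 or 3 (adjusted p of 0.05 to 0.199). That holds for its brightest probe set, while others were called higher, at 0.47 to 1.41, and another was not called, at -0.13. Output genes of RAS-MAPK signalling, which code for feedback inhibitors and immediate early factors, gave 10 of 23 higher and 4 lower, or 7 lower when both Kasumi-1 and Sig-M5 were left out. PHLDA1 read 7.31, 7.54 and 6.98, against 2.65 to 6.77 (median 4.99), a difference of 2.78 ± 0.15, and SPRY2 and SPRY4, inhibitors of receptor signalling, were higher by 1.72 ± 0.14 and 1.25 ± 0.10. For SPRY2 Kasumi-1 averaged 8.71, beside 8.94 in OCI-AML3, and for SPRY4 Sig-M5 was above OCI-AML3, at 7.06 beside 5.99. The other SPRY4 probe sets were not called, at 0.33 and -0.2.

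Metabolic genes moved in both directions. Of the cholesterol and fatty acid synthesis genes 12 of 21 were lower and 2 higher, with a median of -0.45, and 9 were lower without OCI-AML3 replicate 2. DHCR7, the last enzyme of cholesterol synthesis, differed by -1.39 ± 0.13, with KG-1a (11.19) and OCI-M1 (10.78) highest and MV-4-11 (6.46) and Sig-M5 (7.15) below OCI-AML3, whereas FDPS, farnesyl diphosphate synthase, was above every other line by 0.31 or more. In glycolysis and hypoxia 11 of 28 genes were higher and 3 lower, or 9 and 1 without OCI-AML3 replicate 2, with SLC2A5, a fructose transporter, above every other line (9.92, 9.98 and 9.70, against 4.70 to 9.05) and PFKM, muscle phosphofructokinase, second to OCI-M1. Glutathione and xenobiotic enzymes gave 13 of 35 higher and 6 lower, or 11 lower without Kasumi-1 and Sig-M5. CYP1B1, a cytochrome P450, read 4.58, 3.92 and 4.77, against 3.28 to 10.30 (median 6.50). Reference genes, often taken as stable, differed as often as these lists, with 5 of 13 higher (3 when both Kasumi-1 and Sig-M5 were left out) and 3 lower, among them TFRC, the transferrin receptor (-1.92 ± 0.28), and SDHA (1.0 ± 0.10), a share against which the small differences above are to be read.

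Retinoid genes, which bear on the drug of the study, were close to the background share, with 4 of 22 higher and 2 lower, or 1 lower without OCI-AML3 replicate 2. RARA, the receptor that tamibarotene binds, read 8.65, 8.70 and 8.10, second to Sig-M5 at 9.11, a difference of 0.54 ± 0.14 (adjusted p = 0.0074) that was not called without OCI-AML3 replicate 1 or without replicate 2. Some other RARA probe sets were also called higher, at 0.27 to 0.94, and the rest were not called, at -0.27 to 0.23. RXRA, its heterodimer partner, read 9.70, 9.77 and 9.67, second to MV-4-11 at 10.07, a difference of 1.43 ± 0.11. DHRS9, a short-chain dehydrogenase that can oxidise retinol, read 10.88, 10.94 and 10.83, second to NOMO-1 at 12.05, a difference of 4.23 ± 0.10. ALDH1A1, which makes retinoic acid, read 6.27, 6.43 and 6.14 in OCI-AML3 and averaged 6.31 in OCI-M1, the other lines being at 3.57 to 4.27. DNA and histone methylation enzymes stayed near the background, with 5 of 35 higher and 4 lower, or 9 higher when both Kasumi-1 and Sig-M5 were left out; the brightest DNMT3A probe set was not called (0.07 ± 0.10), the other 3 DNMT3A probe sets were called higher, at 0.65 to 0.91, and IDH1 was higher by 0.91 ± 0.11. Cancer-testis antigens gave 1 of 18 higher and 3 lower. PRAME, the best known of them in AML, read 2.77, 2.66 and 2.63, and 4 other lines averaged 2.46 to 2.74, so that its difference of -1.53 became -0.27 without OCI-M1.

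**Figure D5:**
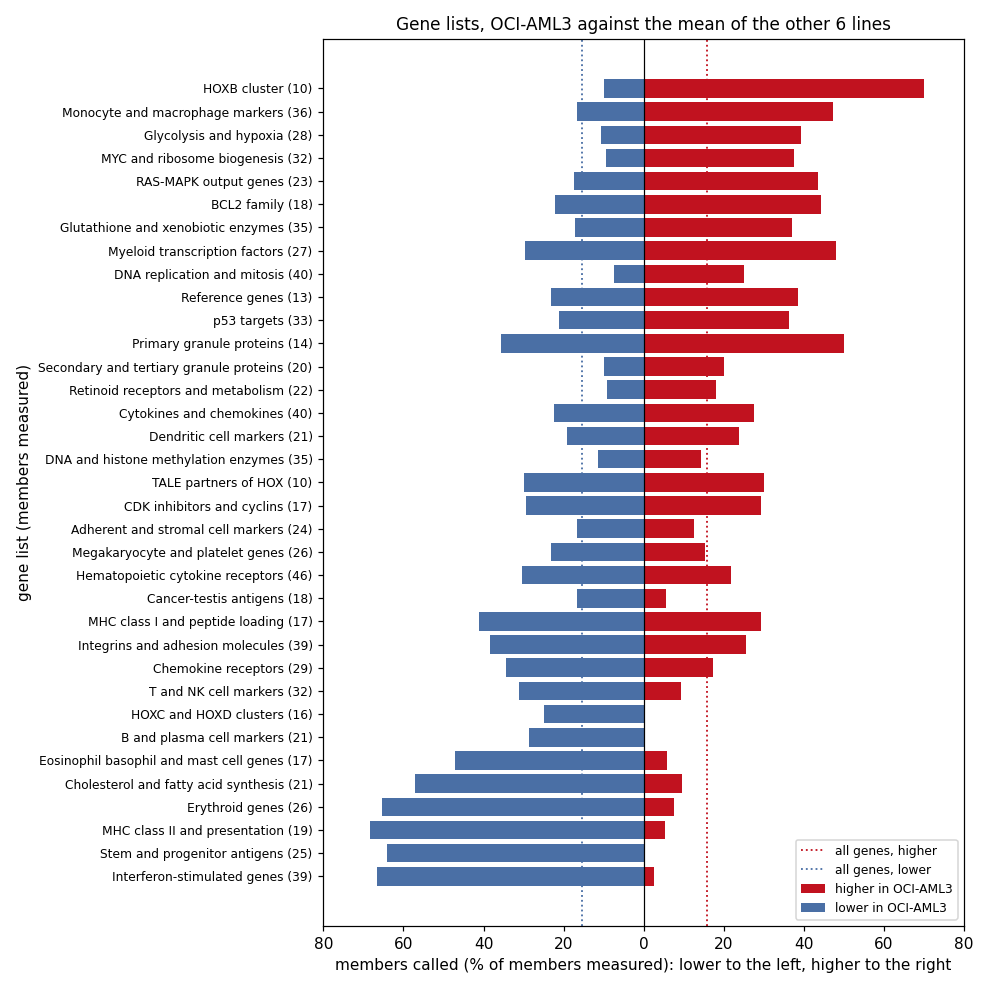
Share of measured members of each gene list called higher (red, to the right) and lower (blue, to the left) in OCI-AML3 than the mean of the other 6 lines, in percent, with the number measured in parentheses. Dotted lines mark the shares over all genes, 15.8% higher and 15.5% lower. The HOXB list has the largest excess of higher over lower members, and the interferon, progenitor, MHC class II and erythroid lists lie at the lower end.

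The line differences were mostly present in the tamibarotene arrays as well, a set of arrays that the vehicle comparison did not use, though every cell in it had been exposed to the drug. There 3680 genes (20.3%) were higher and 3756 (20.7%) lower in OCI-AML3 than the mean of the other lines. In those arrays 555 genes (3.06%) were above and 236 (1.3%) below each other line. Of the 321 genes above every other line in vehicle, 317 were also called higher than the mean in tamibarotene, and of the 104 genes below every line, 102 were called lower. Among the genes named by rule, 170 of 182 with a call in vehicle had the same call in tamibarotene. RNASE1 differed by 5.88 there, MKX by 5.26, HOXB-AS3 by 5.50, GPR160 by -4.97 and BCL7A by -4.41. S100A8 differed by 0.11 in tamibarotene and by 2.84 in vehicle, and CD14 by -0.01 in tamibarotene and by 1.55 in vehicle. The lists kept much the same counts in both arms for HOXB genes (7 higher and 1 lower in tamibarotene) and MHC class II (2 higher and 13 lower), whereas the MYC and ribosome biogenesis list had 3 higher and 16 lower in tamibarotene, against 12 and 3 in vehicle, and the MHC class I list 10 higher and 2 lower in tamibarotene, against 5 and 7 in vehicle. Whether a list changed between the arms was not tested.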

How the data were processed

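The deposited values are log2 expression values that the authors made from the scanned arrays with RMA in affy, per the submitters' processing notes, which give no version; RMA corrects background, normalizes between arrays and summarises probes into probe sets. Being already normalized, they were used as deposited. Of 49395 probe sets, 44988 carry a single gene symbol in the platform annotation and were tested, while 1832 with several symbols and 2473 with none were left out. Line means were fitted to the 18 vehicle arrays with limma 3.58.1 (lmFit and eBayes, R 4.3.3, 11 residual degrees of freedom), with Benjamini-Hochberg adjustment across the 44988. "Above each" or "below each" means that all 6 contrasts with single lines were called that way. The fit was tested on simulated data. Arrays give no counts, and the number of arrays limits the precision.

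The comparison and the gene lists were chosen with earlier results of these data known, and no set test was made. Genes were named by rule: the 15 largest differences each way without overlap of arrays, the 8 widest gaps each way to the nearest line, for each list the 4 members with the strongest calls (fewer where fewer were called), all HOX list members and a panel of AML genes. Replicate numbers were not used as pairs: over all probe sets tested, deviations of same-numbered arrays of different lines correlated at -0.693 to 0.705 (correlations given in the results are over genes, 1 probe set each). Some genes of these lists were not analysed here. Alternatives left out each array and each line, changed the normalization, filter, weights and probe set rule, and used line means as samples.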

Additional observations from a re-analysis of the deposited data

Results flagged for a closer look

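For 2 named genes the difference between OCI-AML3 and the mean of the other lines was called in opposite directions in the vehicle and the tamibarotene arrays, and a fit over both arms tested the change itself. BIK, a death-promoting member of the BCL2 family, differed by 1.5 in tamibarotene and by -1.18 in vehicle, so that the difference between the arms was 2.68 (limma, adjusted p = 2.03e-14). DHRS3, a retinal reductase that retinoids induce, differed by 1.93 in tamibarotene and by -1.07 in vehicle, a difference between the arms of 3.00 (adjusted p = 3.15e-13). The vehicle difference of BIK was -0.77 without Kasumi-1 and -0.75 without NOMO-1, and that of DHRS3 was -0.62 without Kasumi-1 and -0.66 without OCI-M1. Of the 210 named genes, 52 had a line difference that changed between the arms by this test. The share over all genes was not counted for this test, so whether 52 is many or few cannot be said.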

How the results depend on the processing

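At the main setting 7195 probe sets were higher and 6288 lower, and 321 genes were above and 104 below each other line. With 1 probe set per gene in the fit, 2934 and 2917 were called, a smaller number of tests. With line means as samples 33 probe sets were higher and 1 lower. With array weights, whose estimation stopped before convergence, 12168 were higher, 13625 lower and 205 genes below each line. With a minimum log2 difference of 1, 1829 were higher, 1371 lower, 89 genes above and 31 below each line. Fewer lines left more genes apart: without Kasumi-1 and Sig-M5 530 were above and 317 below each line, without NOMO-1 482 were above, without MV-4-11 158 and without Sig-M5 225 were below. Leaving out 1 array at a time gave 5733 to 7631 higher, 4582 to 6712 lower, 255 to 323 above and 88 to 113 below each line; the lowest counts came without OCI-AML3 replicate 1 or 2.

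With the replicate number as a block 6981 probe sets were higher. Of 46 pairs of same-numbered arrays in different lines 7 correlated above 0.1, so the numbers are not taken to pair the arrays.

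Of 182 named genes with a call, 156 kept it in every one of 36 settings apart from line means, where 8 kept it. Directions turned for HOXB9 (0.35 without OCI-M1), PBX3 (-0.31 without Kasumi-1, -0.26 without OCI-M1, -0.51 without Kasumi-1 and Sig-M5), PSMB9 (-0.17 without Kasumi-1 and Sig-M5) and ITGAM (0.57 without NOMO-1), and the difference of RUNX1T1 was lost (0.00 without Kasumi-1 and Sig-M5); for HOXB9, ITGAM and RUNX1T1 the line left out is the one with the high level. The cause was not tested otherwise. Dim probe sets limit what can be read: differences of genes near the bottom of the scale may be understated.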

Other observations

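The calls were not spread evenly over the chromosomes of the RefSeq table, which is a description with no test. On chromosome 13, 29.8% of 305 genes were lower and 9.18% higher in OCI-AML3, with a median difference of -0.112, against line medians of -0.074 to 0.175 in the other 6 lines. On chromosome 7, 25.9% of 829 genes were higher and 12.9% lower, and on chromosome 16, 24.3% of 750 were higher and 10% lower. Their medians, 0.004 and 0.042, lay within those of the other lines (-0.124 to 0.03 and -0.138 to 0.118). Shares were close on chromosomes 17 (23.5% higher, 10.2% lower), 1 (23.4% and 11.2%) and 22 (22.1% and 11.7%). Genes of chromosome X were lower in 21.5% and higher in 8.16% of 674 cases. Chromosome 4 had 9.56% higher and 18.7% lower of 701 genes, and its median of -0.097 lay below those of the other lines (-0.059 to 0.045). DNA copy number was not measured.

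Several named genes rest on the probe set that represents them. Of 143 named genes with more than 1 probe set, 28 had probe sets with differences of opposite sign. For IGLL1, a surrogate light chain of B cell precursors, the 2 probe sets gave -3.46 and -1.26, and for FN1, fibronectin, 8 probe sets gave 0.07 to 4.65.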
